A study of Arabidopsis thaliana with 8 samples.

Results

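The genes described here encode the nuclear subunits of the photosystems and the proteins that harvest light for them. They were taken from the count table by locus, as the listed *LHCA* and *LHCB* antenna genes and the listed *PSA* and *PSB* subunit genes. All 43 listed loci had a row among the 28496 genes of the table, and all 43 passed the filter on low counts that 20382 genes passed. They comprise 9 genes of the major antenna of photosystem II (PSII), 6 of its minor antenna, 6 of the photosystem I (PSI) antenna, 12 PSI subunits, 6 proteins of the PSII oxygen-evolving complex and 4 other PSII subunits.

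RNA was sequenced from untreated whole *Arabidopsis thaliana* seedlings, 6 days old, grown in vitro on 1/2 MS agar at 22 °C with 8 h of light a day. The genotypes compared were wild-type Col-0 (3 libraries, M2, P2 and S2), *TT2* OE (3 libraries, O2, R2 and U2) and *MYB5* OE (2 libraries, N2 and Q2). *TT2* OE and *MYB5* OE express the MYB transcription factor *TT2* or *MYB5* from the 35S promoter, which is active in most tissues, so that neither line models the normal place of expression. The study's text describes the plants as independent biological replicates, while the labels do not say which transgenic lines were used or whether plants were pooled.

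In the thylakoid membrane, antenna proteins bind chlorophyll and pass excitation energy to the reaction centres of PSII, which splits water, and of PSI, which reduces ferredoxin. The reaction centre proteins themselves are encoded in the chloroplast, whereas the antenna proteins and many smaller subunits are encoded in the nucleus and imported. Nuclear photosystem genes are known to respond to light and to the circadian clock, and their transcripts are among the most abundant of green tissue.

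Several of these proteins are encoded by near-identical genes, which bears on how far their counts can be told apart. The first 57 coding bases of the *LHCB1* and *LHCB2* genes are shown because these families gave the widest differences between libraries. They are written 5′ to 3′ from the start codon (RefSeq, TAIR10.1), with capitals at the positions where members of the same family differ, 14 positions in *LHCB1* and 12 in *LHCB2*.
*LHCB1.1*: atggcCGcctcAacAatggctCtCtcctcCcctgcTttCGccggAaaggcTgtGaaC
*LHCB1.2*: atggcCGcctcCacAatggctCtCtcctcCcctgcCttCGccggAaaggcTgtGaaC
*LHCB1.3*: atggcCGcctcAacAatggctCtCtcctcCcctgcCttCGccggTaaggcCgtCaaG
*LHCB1.4*: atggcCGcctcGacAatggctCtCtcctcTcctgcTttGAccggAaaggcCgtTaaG
*LHCB1.5*: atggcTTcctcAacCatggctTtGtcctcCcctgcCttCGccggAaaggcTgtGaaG
*LHCB2.1*: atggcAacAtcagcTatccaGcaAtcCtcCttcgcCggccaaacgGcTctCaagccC
*LHCB2.2*: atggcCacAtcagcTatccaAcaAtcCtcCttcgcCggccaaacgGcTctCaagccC
*LHCB2.3*: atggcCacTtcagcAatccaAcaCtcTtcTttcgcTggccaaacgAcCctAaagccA
*LHCB1.1*, *LHCB1.2* and *LHCB1.3*, which lie next to each other on chromosome 1, were 95.6% to 96.4% identical over their coding sequences. *LHCB1.4* and *LHCB1.5*, neighbours on chromosome 2, were 91.4% identical to each other. *LHCB2.1* and *LHCB2.2* were 96.6% identical, whereas *LHCB2.3* was 85.5% identical to *LHCB2.1* and 84.5% to *LHCB2.2*. Windows of 50 bases present in another gene made up from 10.6% of the transcript in *LHCB1.2* to 20.5% in *LHCB1.1*, and 21.9% in *LHCB2.1* and 28.2% in *LHCB2.2*. *LHCA2* shared 8.76% of such windows with the unlisted gene AT5G28450. No such window was found in any of the other members, *LHCB2.3* included. Counts within *LHCB1*, and between *LHCB2.1* and *LHCB2.2*, are therefore uncertain where reads fell in shared stretches.

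Promoters were read as the 300 bases before each annotated gene start (RefSeq, TAIR10.1), on both strands, for the 43 members and for 20299 of the genes tested. The G-box CACGTG, which light-responsive and clock-related factors are known to bind, was found in 9 of 43 members and in 8.10% of all promoters. The letters AAAAATCT, known as the CCA1-binding site of an *LHCB1* promoter, occurred in 5 members (*LHCB1.1*, *LHCB1.4*, *LHCA4*, *PSAN* and *PSAO*) and in 7.94% of all promoters. The evening element AAAATATCT occurred in *LHCA5* alone among the members, and in 2.90% of all promoters. The I-box GATAAG occurred in 9 members and in 14.7% of all promoters, CCAAT in 29 members and in 53.2%, and AACAATCT in *PSAE2* alone and in 2.15%. These motifs do not contain one another, and a match is a description of the letters. The promoters of *LHCB2.3* (chr3:10255606-10255905, plus strand), *LHCB1.4* (chr2:14524307-14524606, plus strand), *LHCA5* (chr1:17178950-17179249, plus strand) and *PSAO* (chr1:2641935-2642234, minus strand) are shown as examples. Each had the largest rise or fall of its group from round 1 to round 2 and holds a motif marked below. Of other such genes, *LHCB7* and *PSAH2* hold a G-box and are not shown. *LHCB5*, *PSBR*, *PSBX*, *PSBO2* and *PSBY*, also the largest fall or rise of their groups, are not shown either. They hold none of these motifs except CCAAT, which is in *LHCB5* and *PSBX*. Capitals mark the G-box in *LHCB2.3*, AAAAATCT in *LHCB1.4* and *PSAO*, and both evening elements in *LHCA5*.
*LHCB2.3*: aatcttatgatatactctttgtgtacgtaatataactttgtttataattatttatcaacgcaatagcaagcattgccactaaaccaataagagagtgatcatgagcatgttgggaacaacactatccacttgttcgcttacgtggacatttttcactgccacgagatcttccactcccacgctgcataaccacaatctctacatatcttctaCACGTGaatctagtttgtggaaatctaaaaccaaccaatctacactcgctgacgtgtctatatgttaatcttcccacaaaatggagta
*LHCB1.4*: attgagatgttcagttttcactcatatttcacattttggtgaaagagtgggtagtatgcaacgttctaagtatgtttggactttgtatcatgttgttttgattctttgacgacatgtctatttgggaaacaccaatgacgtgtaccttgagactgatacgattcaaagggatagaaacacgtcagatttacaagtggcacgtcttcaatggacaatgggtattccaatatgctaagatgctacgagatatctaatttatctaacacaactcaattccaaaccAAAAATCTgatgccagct
*LHCA5*: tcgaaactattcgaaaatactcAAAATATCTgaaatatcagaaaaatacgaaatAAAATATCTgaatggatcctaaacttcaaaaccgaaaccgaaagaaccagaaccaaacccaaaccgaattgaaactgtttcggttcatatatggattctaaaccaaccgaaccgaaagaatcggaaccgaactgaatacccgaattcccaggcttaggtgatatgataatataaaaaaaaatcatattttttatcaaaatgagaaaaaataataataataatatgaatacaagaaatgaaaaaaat
*PSAO*: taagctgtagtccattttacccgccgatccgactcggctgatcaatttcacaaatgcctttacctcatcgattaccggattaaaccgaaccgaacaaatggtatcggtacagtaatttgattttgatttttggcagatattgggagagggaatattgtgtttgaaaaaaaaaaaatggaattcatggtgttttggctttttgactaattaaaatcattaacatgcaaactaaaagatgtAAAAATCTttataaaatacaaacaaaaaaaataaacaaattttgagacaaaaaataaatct
The G-box of *LHCB2.3* began 88 bases before the gene start, and AAAAATCT began 18 bases before it in *LHCB1.4* and 61 bases before it in *PSAO*. The evening elements of *LHCA5* began 278 and 246 bases before its start.

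Total counts ran from 35496351 to 48428855 per library, and no library was a duplicate of another. Consecutive letters of the library codes form rounds, namely round 1 (M2, N2 and O2), round 2 (P2, Q2 and R2) and round 3 (S2 and U2, with no *MYB5* OE library). The labels do not say what a round is, so harvest time, growth, extraction and sequencing cannot be told apart as what differs between rounds. The clock gene *CCA1*, which peaks in the morning, stood at 3.91 to 5.77 CPM (counts scaled to library size, with TMM factors) in round 1, 216 to 239 in round 2 and 678 to 694 in round 3. The evening gene *TOC1* stood at 205 to 252, 18.7 to 21.6 and 21 to 23.9 CPM, respectively. *TT2* was at 466 to 516 CPM in *TT2* OE and at most 0.316 CPM elsewhere, and *MYB5* at 252 to 281 CPM in *MYB5* OE and at most 0.150 CPM elsewhere, as the labels say. Root markers summed to 106 to 120 CPM in round 1, 126 to 147 in round 2 and 97.1 to 121 in round 3, in the mixture that whole seedlings are. Of 4 seed storage markers only *CRA1* passed the filter, at 0.187 to 0.758 CPM.

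The 43 genes together took 14.8%, 15.3% and 13.4% of all counts in M2, N2 and O2, but 11.7% to 12.2% in round 2 and 11.8% to 12.3% in round 3, so that rounds 2 and 3 did not overlap with round 1. At this depth the exact binomial 95% interval of a share is narrow, 14.75% to 14.77% in M2, and covers counting error only. Per kilobase of exon, the most abundant member was *LHCB1.3*, an LHCII antenna gene, at a mean level of 18439.7 CPM per kb. *LHCB1.5* followed at 8979 and the PSI antenna gene *LHCA4* at 4597 CPM per kb. The least abundant were *LHCB4.3* at 2.2, *LHCB7* at 11.7, *LHCA5* at 69.8 and *LHCA6* at 76.6 CPM per kb. The fall of the total was not even over the members. From round 1 to round 2, *LHCB1.4* and *LHCB1.5* together went from 18274 to 27100 CPM down to 7663 to 9882 CPM. The *LHCB2* genes went up from 5171 to 5203 CPM to 10026 to 11548 CPM. The PSI subunits summed to 21789 to 23389 CPM in round 1 and 22317 to 25790 CPM in round 2. In bulk seedlings, fewer green cells and less RNA per cell cannot be told apart for a lower value, and neither was tested.

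**Figure D1:**
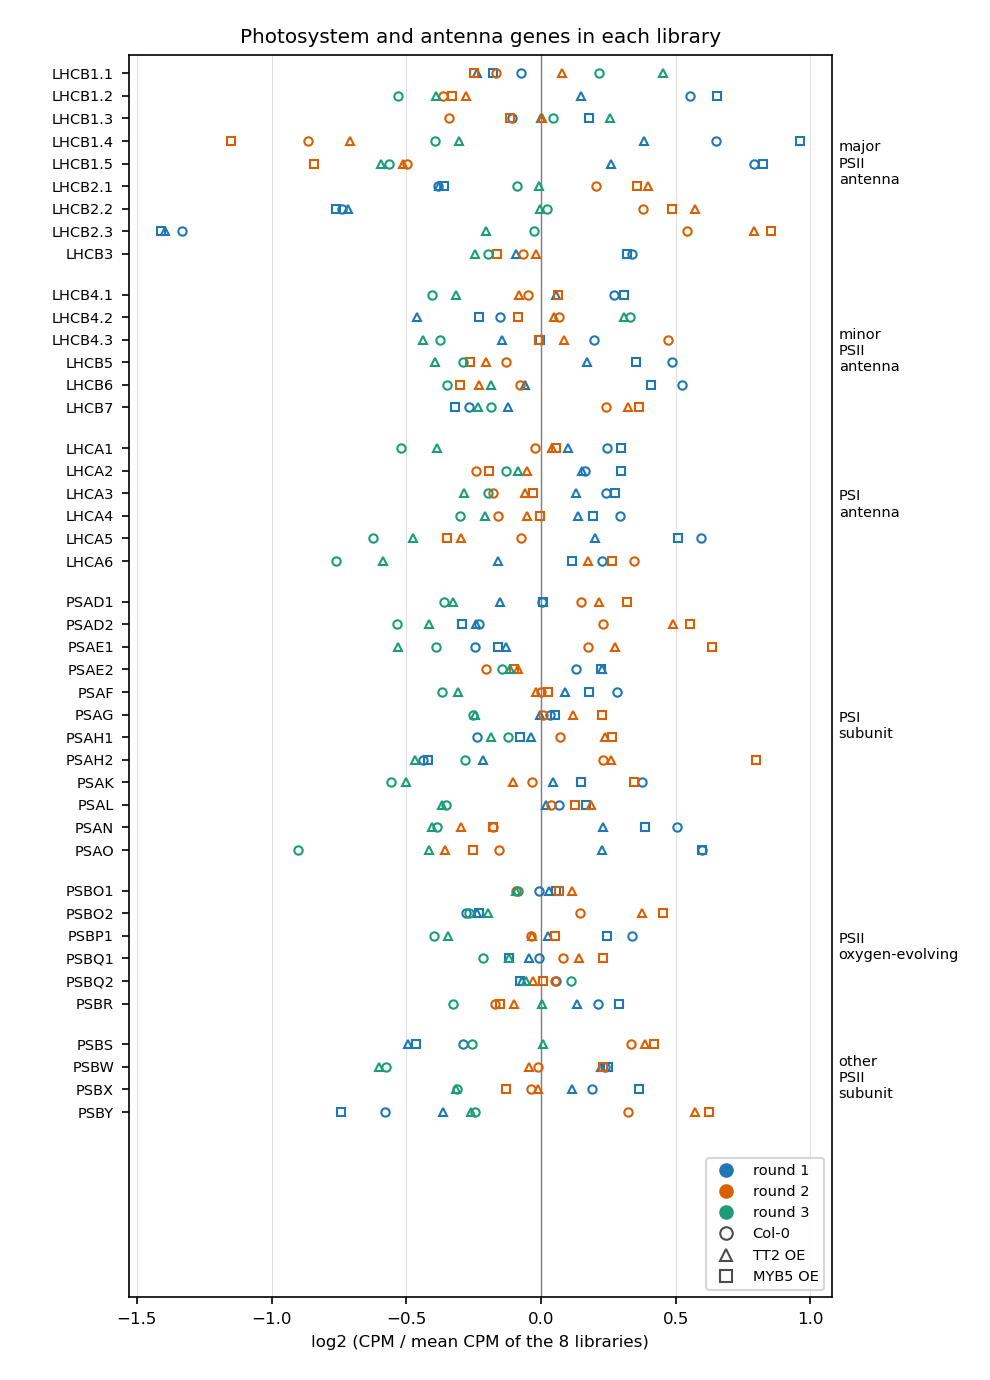
Each row is a gene and each point a library, plotted as log2 of its CPM over the gene's mean CPM of the 8 libraries, with colour for the round and shape for the genotype. Colours separate in many rows, with *LHCB2.3* lowest in round 1 and *LHCB1.4* highest there, whereas shapes of the same colour lie close together.

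Rounds were compared at equal genotype with edgeR's quasi-likelihood test, with p-values adjusted over the 20382 genes tested and a call at an adjusted p under 0.05. Earlier results on these libraries had already parted the rounds over all genes, so these ratios describe the members and are no independent evidence that rounds differ. The rounds are compared pairwise and share libraries. From round 1 to round 2, 13 of 43 members rose, beside 26.7% of all genes tested, and 14 fell, beside 27.6%. These counts were near the background. In round 3, 5 members were higher than in round 1, beside 20.8% of all genes, and 22 (51.2%) were lower, beside 20%. Between rounds 2 and 3, 2 members rose, beside 18.5%, and 22 (51.2%) fell, beside 19%. The median log2 ratio of the members was −0.12, −0.36 and −0.31 in these comparisons, against −0.03, 0.01 and 0.02 over all genes. All 27 members called between rounds 1 and 2, and all 27 called between rounds 1 and 3, had the same sign in each genotype present in both rounds. The calls were made on these same libraries, so this agreement was nearly fixed in advance and is no separate evidence.

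The calls of the *LHCB2.3* and *LHCB1.4* ratios over round 1 held when each library was left out in turn, but several counts did not. *MYB5* OE has only N2 and Q2, so without either of them the other no longer informs a ratio between rounds. Here and below, a call lost without N2 or without Q2 thus reflects the loss of that pair, not of a single library. The 14 falls in round 2 became 9 without M2 and 8 without N2 or without Q2. The 22 falls in round 3 against round 1 became 12 without S2, and the 5 rises became 3 without O2 or without U2. Against round 2, the 22 falls became 12 without R2, 13 without S2 and 14 without U2, and the 2 rises became 1 without N2 or R2 and 0 without P2, Q2, S2 or U2. Of the calls, 18 of 27, 15 of 27 and 8 of 24 held under every omission in the comparisons of round 2 with 1, 3 with 1 and 3 with 2. The 8 of the last comparison were *LHCB2.3*, *LHCA6*, *PSAD1*, *PSAD2*, *PSAE1*, *PSBO2*, *PSBW* and *PSBY*, all lower in round 3, with log2 ratios from −0.91 (*LHCA6*) to −0.52 (*PSBO2*). The 2 rises were *LHCB1.1* (log2 0.41) and *LHCB1.4* (log2 0.56, adjusted p = 0.0262, but 0.333 with DESeq2).

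**Figure D2:**
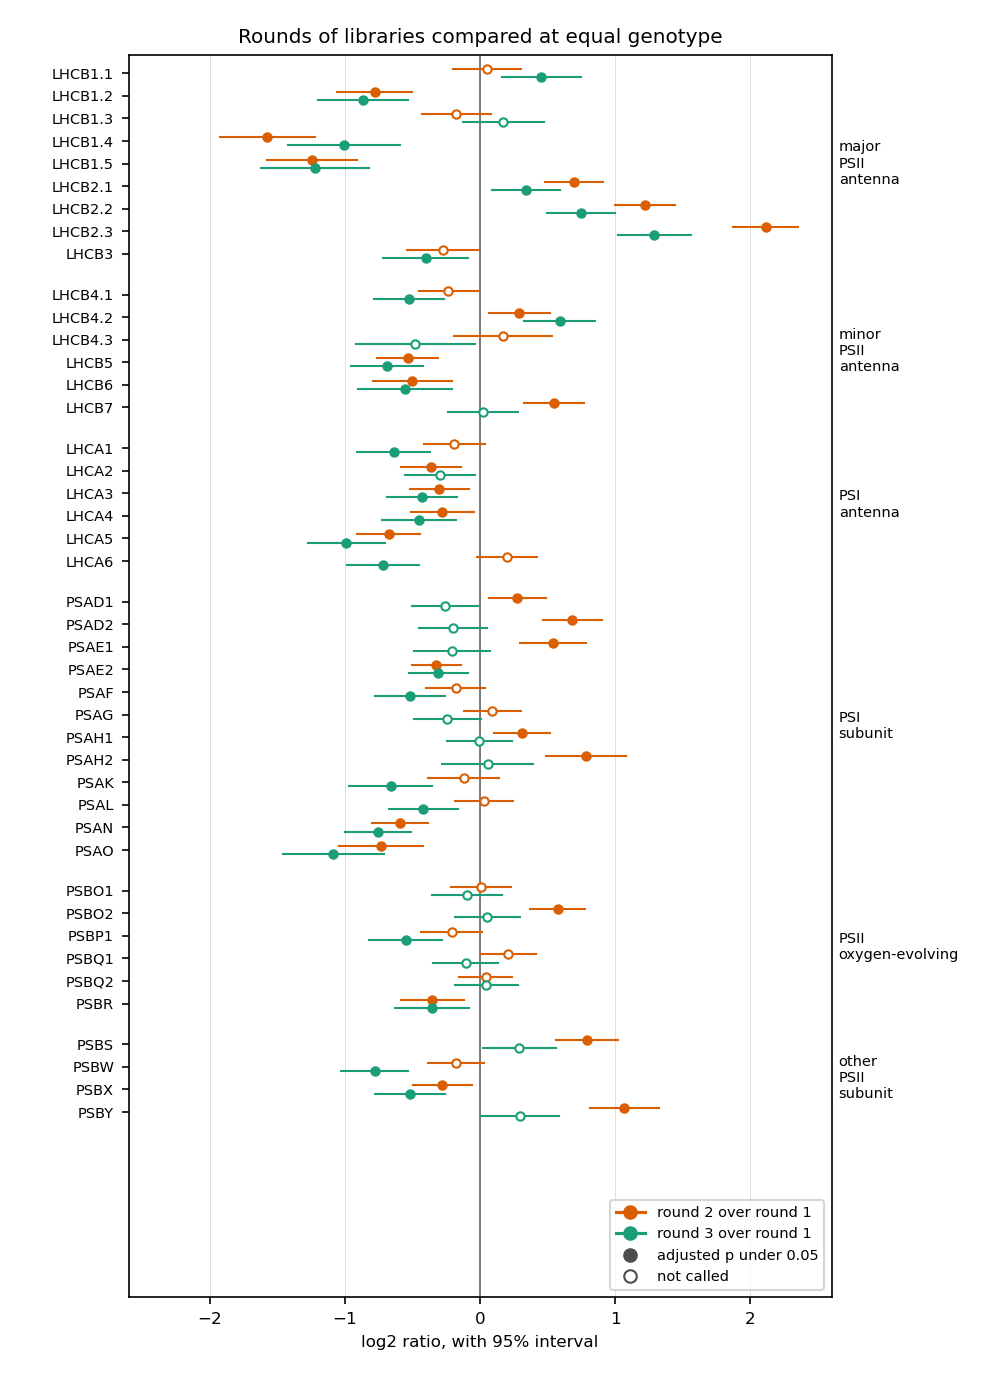
Log2 ratios of round 2 (orange) and round 3 (green) over round 1 are plotted for each member with 95% intervals, with filled points for an adjusted p under 0.05. The *LHCB2* genes lie to the right of 0 and *LHCB1.2*, *LHCB1.4* and *LHCB1.5* to the left in both comparisons, and most PSI genes lie left of 0 in round 3.

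Genes of the major PSII antenna, the trimeric LHCII, gave the largest ratios. The *LHCB2* genes rose in rounds 2 and 3 over round 1, whereas *LHCB1.2*, *LHCB1.4* and *LHCB1.5* fell and *LHCB1.1* and *LHCB1.3* were not called lower. In the values that follow, a round is given in the order Col-0, *MYB5* OE, *TT2* OE, and round 3 as Col-0, *TT2* OE. *LHCB2.3* (AT3G27690), an LHCII protein that is phosphorylated in state transitions, stood at 440.2, 416 and 421 CPM in round 1, at 1613, 2000.2 and 1918 in round 2 and at 1089 and 962 in round 3. The rounds did not overlap. Round 2 was highest in Col-0 and *TT2* OE, and above round 1 in *MYB5* OE, which has no round 3 library. The log2 ratio was 2.11 ± 0.11 (SE) in round 2 over round 1 (adjusted p = 1.59e-08) and 1.29 ± 0.12 in round 3 over round 1 (adjusted p = 5.01e-06). By genotype, the log2 ratio of round 2 over round 1 was 1.87 in Col-0, 2.26 in *MYB5* OE and 2.19 in *TT2* OE. Its close relatives rose less, *LHCB2.2* by 1.22 and *LHCB2.1* by 0.69 on the log2 scale in round 2, and by 0.75 and 0.34 in round 3. The rise of *LHCB2.1* in round 3 lost its call when any of the 8 libraries was left out, with adjusted p up to 0.159.

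*LHCB1.4* (AT2G34430), another LHCII protein, had the largest fall of all members in round 2 over round 1. It stood at 8479, 10510.3 and 7044 CPM in round 1, at 2967, 2433 and 3303 in round 2 and at 4115 and 4378 in round 3. All libraries of round 1 lay above all others. The log2 ratio was −1.57 ± 0.16 in round 2 (adjusted p = 5.36e-06) and −1.01 ± 0.19 in round 3 (adjusted p = 0.00108), both over round 1. *LHCB1.5* fell by 1.25 and 1.22 on the log2 scale, and *LHCB1.2* by 0.78 and 0.87, in rounds 2 and 3. *LHCB1.3* (AT1G29930), the most abundant member, stood at 21063, 25681 and 22697 CPM in round 1, at 17878, 20928 and 22744 in round 2 and at 23379 and 27076 in round 3. Its rounds overlapped, and its log2 ratios over round 1, −0.18 (95% interval −0.43 to 0.08) and 0.17 (−0.13 to 0.47), were not called. *LHCB1.1* was not called in round 2 (log2 0.05) and was higher in round 3 (log2 0.45, adjusted p = 0.0176), a call lost without O2 or U2. Counted as a sum, which shared reads among them cannot change, *LHCB1.1* to *LHCB1.3* were not called in either round, at log2 −0.23 (adjusted p = 0.126) in round 2 and 0.08 (adjusted p = 0.705) in round 3. *LHCB1.1* and *LHCB1.2* also share windows of 50 bases with *LHCB1.4*, and reads from those can still change the sum. *LHCB3*, the further subunit of LHCII trimers, was not called in round 2 (log2 −0.27, adjusted p = 0.0745) and was lower in round 3 (log2 −0.40, adjusted p = 0.0417). That call was lost without M2, N2, Q2, R2, S2 or U2.

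**Figure D3:**
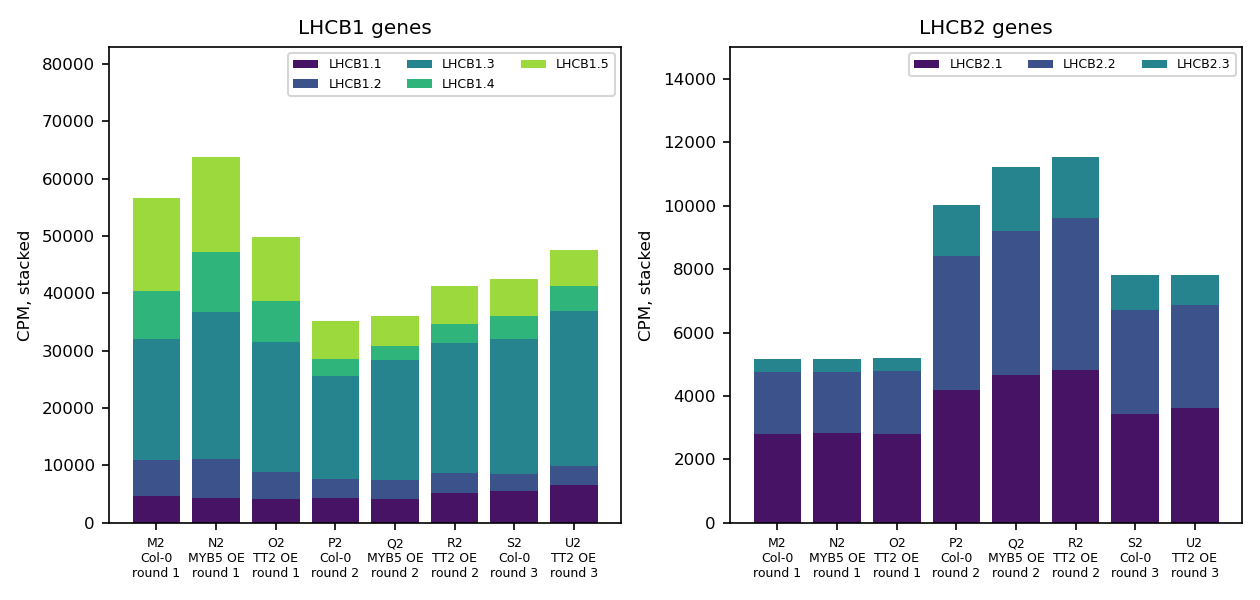
Stacked bars give the CPM of the *LHCB1* genes (left) and of the *LHCB2* genes (right) in each library, with axes that start at 0 and differ in range. The *LHCB1* sum is 49834 to 63813 CPM in round 1 and 35148 to 47568 in rounds 2 and 3, whereas the *LHCB2* sum is 5171 to 5203 CPM in round 1 and 10026 to 11548 in round 2.

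The minor PSII antenna, monomers that link LHCII to the core, moved less and in both directions. *LHCB5* (AT4G10340), the CP26 protein, had its highest CPM, not scaled by length, and its largest fall from round 1, at 5825, 5307 and 4678 CPM in round 1, 3799, 3461 and 3608 in round 2 and 3400.2 and 3166 in round 3. All libraries of round 1 were above the others, and the log2 ratios over round 1 were −0.54 ± 0.10 (adjusted p = 0.000845) and −0.69 ± 0.12 (adjusted p = 0.000703). *LHCB6*, the CP24 protein, fell by 0.50 and 0.56 on the log2 scale. Its calls were lost without M2, N2 or Q2 in round 2 and without M2 or S2 in round 3. *LHCB7* (AT1G76570), a rare relative of *LHCB5*, stood at 11.8, 11.4 and 13.1 CPM in round 1, 16.8, 18.4 and 17.8 in round 2 and 12.5 and 12.1 in round 3. Round 2 alone stood apart, with a log2 ratio of 0.54 ± 0.10 (adjusted p = 0.000662) over round 1, and round 3 was not called (log2 0.02). Of the genes for CP29, *LHCB4.2* rose in both comparisons (log2 0.29 and 0.59) and *LHCB4.1* fell in round 3 (log2 −0.53, adjusted p = 0.00351). The first call was lost without O2, P2 or R2, and the last without S2. *LHCB4.3* stood at 2.36 to 4.43 CPM and was called only between rounds 2 and 3 (log2 −0.65, adjusted p = 0.0230), a call lost without P2, R2 or S2.

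In the PSI antenna no member rose in round 2 or 3 over round 1, beside 26.7% and 20.8% of all genes, while 4 of 6 fell in round 2 and 5 of 6 in round 3, beside 27.6% and 20%. *LHCA1* to *LHCA4* encode the belt of antenna proteins on PSI and summed to 19422 to 21249 CPM in round 1, 16083 to 17411 in round 2 and 14480 to 15022 in round 3, so that the rounds did not overlap. *LHCA4* (AT3G47470), the most abundant in CPM and per kb, stood at 7286, 6806 and 6543 CPM in round 1, 5324, 5939 and 5744 in round 2 and 4834 and 5151 in round 3. Its ratios over round 1 were small, log2 −0.28 ± 0.11 (adjusted p = 0.0421) and −0.45 ± 0.13 (adjusted p = 0.0128). The first call was lost when any library but O2 was left out, and with RLE size factors (adjusted p = 0.0673), and the second without M2, S2 or U2. *LHCA5* (AT1G45474), a minor antenna protein that links PSI to the NDH complex, stood at 113, 107 and 85.9 CPM in round 1, 71.0, 58.8 and 60.8 in round 2 and 48.6 and 53.9 in round 3. No round overlapped another, and the log2 ratios were −0.68 ± 0.11 (adjusted p = 0.000206) and −0.99 ± 0.13 (adjusted p = 6.94e-05). *LHCA6* (AT1G19150), the other linker to NDH, stood at 104, 96.3 and 79.7 CPM in round 1, 113, 107 and 100.3 in round 2 and 52.5 and 59.3 in round 3. It fell in round 3 alone, with log2 ratios of −0.72 over round 1 (adjusted p = 0.000521) and −0.91 over round 2 (adjusted p = 0.000121), while round 2 over round 1 was not called (log2 0.20). Of the others, *LHCA1* fell in round 3 (log2 −0.64), *LHCA2* in round 2 (log2 −0.37, lost without N2 or Q2) and *LHCA3* in both (log2 −0.30 and −0.43). The calls of *LHCA3* were lost without M2, N2, P2, Q2 or R2 in round 2 and without M2, S2 or U2 in round 3.

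Among the 12 PSI subunits, 5 rose and 3 fell from round 1 to 2, beside 26.7% and 27.6% of all genes, and the 3 falls (25%) were near that background. In round 3 over round 1, 0 rose and 6 fell, beside 20.8% and 20%, and between rounds 2 and 3, 9 fell, beside 19%. *PSAF* (AT1G31330), which docks plastocyanin, had the highest CPM, not scaled by length, at 4359.6, 4050.0 and 3809 CPM in round 1, 3583, 3652 and 3542 in round 2 and 2778 and 2893 in round 3. Round 3 was lowest, with a log2 ratio of −0.52 ± 0.12 over round 1 (adjusted p = 0.00412), a call lost without S2, and round 2 was not called (log2 −0.18). *PSAH2* (AT1G52230), a subunit at the docking site of LHCII, stood at 1025, 1039 and 1196 CPM in round 1, 1628, 2413 and 1665 in round 2 and 1142 and 1004 in round 3. Round 2 lay above the other rounds, with *MYB5* OE highest, and its log2 ratio over round 1 was 0.78 ± 0.14 (adjusted p = 0.000383). *PSAO* (AT1G08380), a small subunit at the same site, stood at 2331, 2334 and 1804 CPM in round 1, 1385, 1295 and 1204 in round 2 and 825 and 1156 in round 3. The order of rounds held in every library, and the log2 ratios over round 1 were −0.73 ± 0.14 (adjusted p = 0.000883) and −1.09 ± 0.17 (adjusted p = 0.000288).

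The stromal subunits that dock ferredoxin differed by gene copy, in direction for *PSAE* and in size alone for *PSAD*. *PSAD2* and *PSAE1* rose in round 2 (log2 0.68 and 0.54) and *PSAD1* rose less (log2 0.28, lost without N2, O2, Q2 or R2), whereas *PSAE2* fell (log2 −0.32). In round 3, *PSAD1*, *PSAD2* and *PSAE1* were lower than in round 2 (log2 −0.54, −0.88 and −0.75) and were not called against round 1. *PSAN*, a lumenal subunit, fell in both comparisons with round 1 (log2 −0.59 and −0.76). *PSAK* and *PSAL*, subunits at the edge of the complex, fell in round 3 alone (log2 −0.66 and −0.42), the latter lost without M2, S2 or U2. *PSAH1* rose in round 2 (log2 0.31, lost without M2, N2, Q2 or R2), and *PSAG*, which holds the antenna belt, was called only between rounds 2 and 3 (log2 −0.33, lost without M2, N2, Q2, R2, S2 or U2).

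Of the 6 genes of the oxygen-evolving complex, which shields the manganese cluster of PSII, 1 rose and 1 fell from round 1 to round 2, beside 26.7% and 27.6% of all genes, and 4 were not called. *PSBO1* (AT5G66570), the main manganese-stabilising protein, stood at 4861, 5076 and 4986 CPM in round 1, 4583, 5112 and 5299 in round 2 and 4602 and 4579.8 in round 3. Its rounds overlapped, and the log2 ratios over round 1 were 0.01 (95% interval −0.22 to 0.23) and −0.10 (−0.36 to 0.16). Its copy *PSBO2* (AT3G50820) stood at 931, 962 and 958 CPM in round 1, 1249, 1544 and 1463 in round 2 and 938 and 986 in round 3. It rose in round 2, with a log2 ratio of 0.57 ± 0.09 (adjusted p = 0.000262), and in round 3 S2 was within the range of round 1 and U2 just above it (log2 0.05, not called). *PSBR* (AT1G79040), needed for stable binding of the complex, stood at 3181, 3362 and 3016 CPM in round 1, 2440.4, 2475 and 2563 in round 2 and 2191 and 2754 in round 3. Both log2 ratios over round 1 were about equal at −0.35 and −0.36 (adjusted p = 0.0141 and 0.0409). The calls of *PSBR* were lost without M2, N2, Q2 or R2 in round 2 and without M2, N2, Q2, R2 or S2 in round 3. *PSBP1* fell in round 3 (log2 −0.55, adjusted p = 0.00352, lost without S2), and *PSBQ1* and *PSBQ2* were not called against round 1.

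Of the 4 other PSII subunits, 2 rose and 1 fell in round 2, beside 26.7% and 27.6% of all genes, and 2 fell in round 3, beside 20%, both over round 1. *PSBY* (AT1G67740), a small membrane protein near cytochrome b559 and the highest of these genes in CPM not scaled by length, stood at 1231, 1099 and 1430.1 CPM in round 1, 2298, 2836 and 2732 in round 2 and 1554 and 1537 in round 3. No round overlapped another, with a log2 ratio of 1.07 ± 0.12 in round 2 over round 1 (adjusted p = 9.10e-06), and 0.30 in round 3 over round 1 that was not called (adjusted p = 0.0964). *PSBS*, the sensor of lumen pH in heat dissipation, rose in round 2 (log2 0.79 ± 0.11, adjusted p = 4.91e-05). *PSBX* (AT2G06520), a small core subunit, stood at 1717, 1934 and 1628 CPM in round 1, 1468, 1374 and 1495 in round 2 and 1213 and 1209 in round 3. It fell in order of the rounds, with log2 ratios of −0.28 (adjusted p = 0.0321, lost without M2, N2, P2, Q2 or R2) and −0.52 over round 1. *PSBW*, another small subunit, fell in round 3 alone (log2 −0.78, adjusted p = 0.000161).

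Ratios between copies within a library do not depend on library size, and several parted the rounds. How often ratios of other genes part the rounds was not examined. The *LHCB1* genes summed to 9.58 to 12.3 times the CPM of the *LHCB2* genes in round 1, 3.22 to 3.57 times in round 2 and 5.43 to 6.08 times in round 3. *LHCB4.1* had 1.82 to 1.97 times the CPM of *LHCB4.2* in round 1, 1.24 to 1.51 times in round 2 and 0.816 to 0.880 times in round 3, so that the order of both genes turned. The ratio of *PSAE1* to *PSAE2* was 3.37 to 3.44 in round 1, 5.65 to 7.31 in round 2 and 3.30 to 3.71 in round 3. Rounds 1 and 3 thus overlapped in this pair, and round 2 stood apart. The ratio of *PSBO1* to *PSBO2* was 5.21 to 5.28, 3.31 to 3.67 and 4.65 to 4.90 in rounds 1 to 3, and that of *PSAD1* to *PSAD2* was 1.85 to 2.14, 1.43 to 1.64 and 1.85 to 1.96. The ratio of *PSBQ2* to *PSBQ1* did not part rounds 1 and 3 (up to 1.59 in round 1 and from 1.59 to 1.91 in round 3). Nor did that of *PSAH2* to *PSAH1*, at 1.03 to 1.16 in round 1 and 1.08 to 1.17 in round 3. The ratio of *LHCB1.3* to *LHCB1.1* overlapped between rounds 1 and 2, at 4.59 to 6.01 and 4.15 to 5.15. *PSAD*, *PSAE*, *PSBO* and *LHCB4* copies were 77.6% to 86.3% identical in coding sequence and shared no window of 50 bases, whereas the *LHCB1* genes did.

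**Figure D4:**
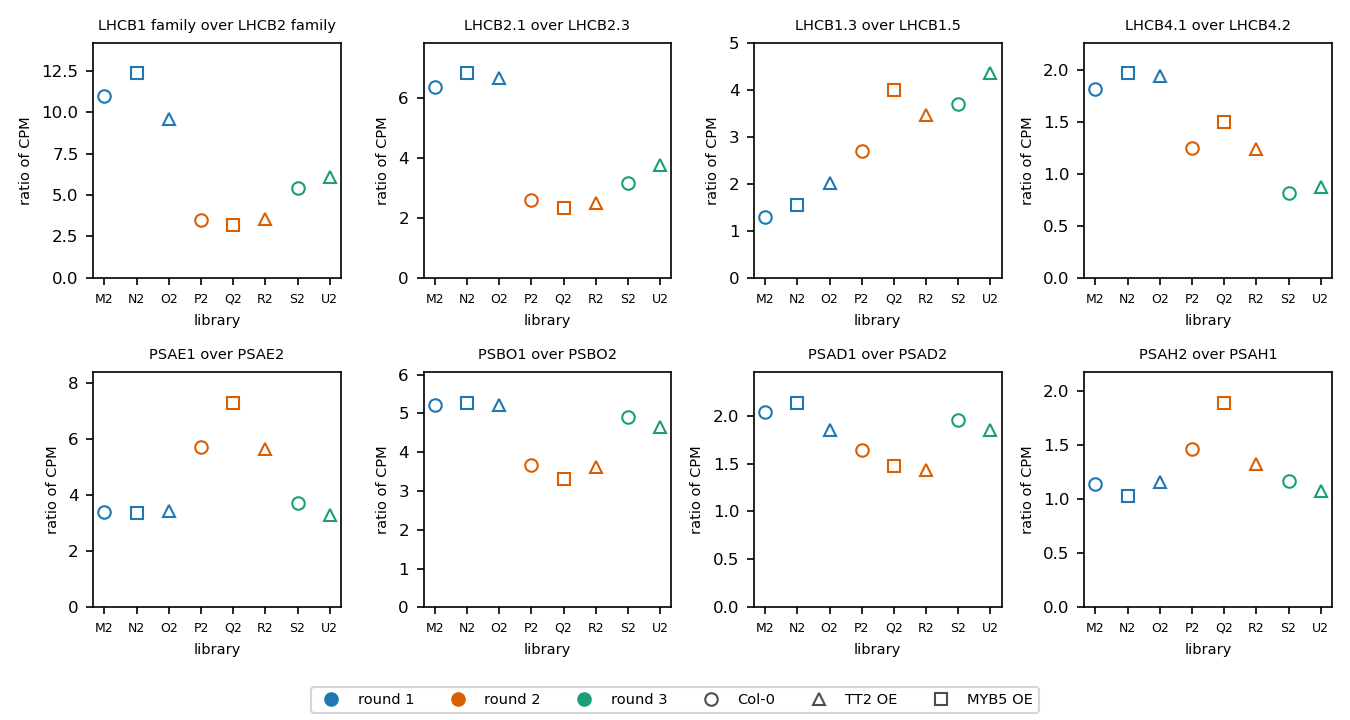
Each panel gives the ratio of CPM between copies of a gene, or between families, in each of the 8 libraries, on axes that start at 0, with colour for the round and shape for the genotype. Round 1 lies at 9.58 to 12.3 in the ratio of *LHCB1* to *LHCB2* and the other rounds at 6.08 or less, and round 2 lies above the others in the ratio of *PSAE1* to *PSAE2*.

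Genotypes were compared within rounds, in the same model, to see whether the overexpressed factors moved these genes. No member was called in *TT2* OE against Col-0, where 0.697% of all genes were called higher and 0.711% lower. None was called in *MYB5* OE against Col-0 (0.0736% and 0.0932% of all genes), nor in *TT2* OE against *MYB5* OE (0.0638% and 0.108%). With edgeR, 0 members had an unadjusted p under 0.05 in each of these comparisons, and with DESeq2 0 members were called, with 1, 1 and 0 at an unadjusted p under 0.05. The smallest adjusted p was 0.464, 0.678 and 1, respectively. Log2 ratios ran from −0.27 (*LHCB4.3*) to 0.22 (*LHCB1.3*) in *TT2* OE and from −0.30 (*LHCB4.3*) to 0.25 (*LHCB1.3*) in *MYB5* OE. The 95% intervals of all 43 members lay between −0.64 and 0.48 in *TT2* OE and between −0.72 and 0.60 in *MYB5* OE, so that a 2-fold difference was outside each of them. Differences within these intervals were not resolved. The median log2 ratio of the members was 0.01 in *TT2* OE and 0.07 in *MYB5* OE, against 0.00 over all genes in both.

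**Figure D5:**
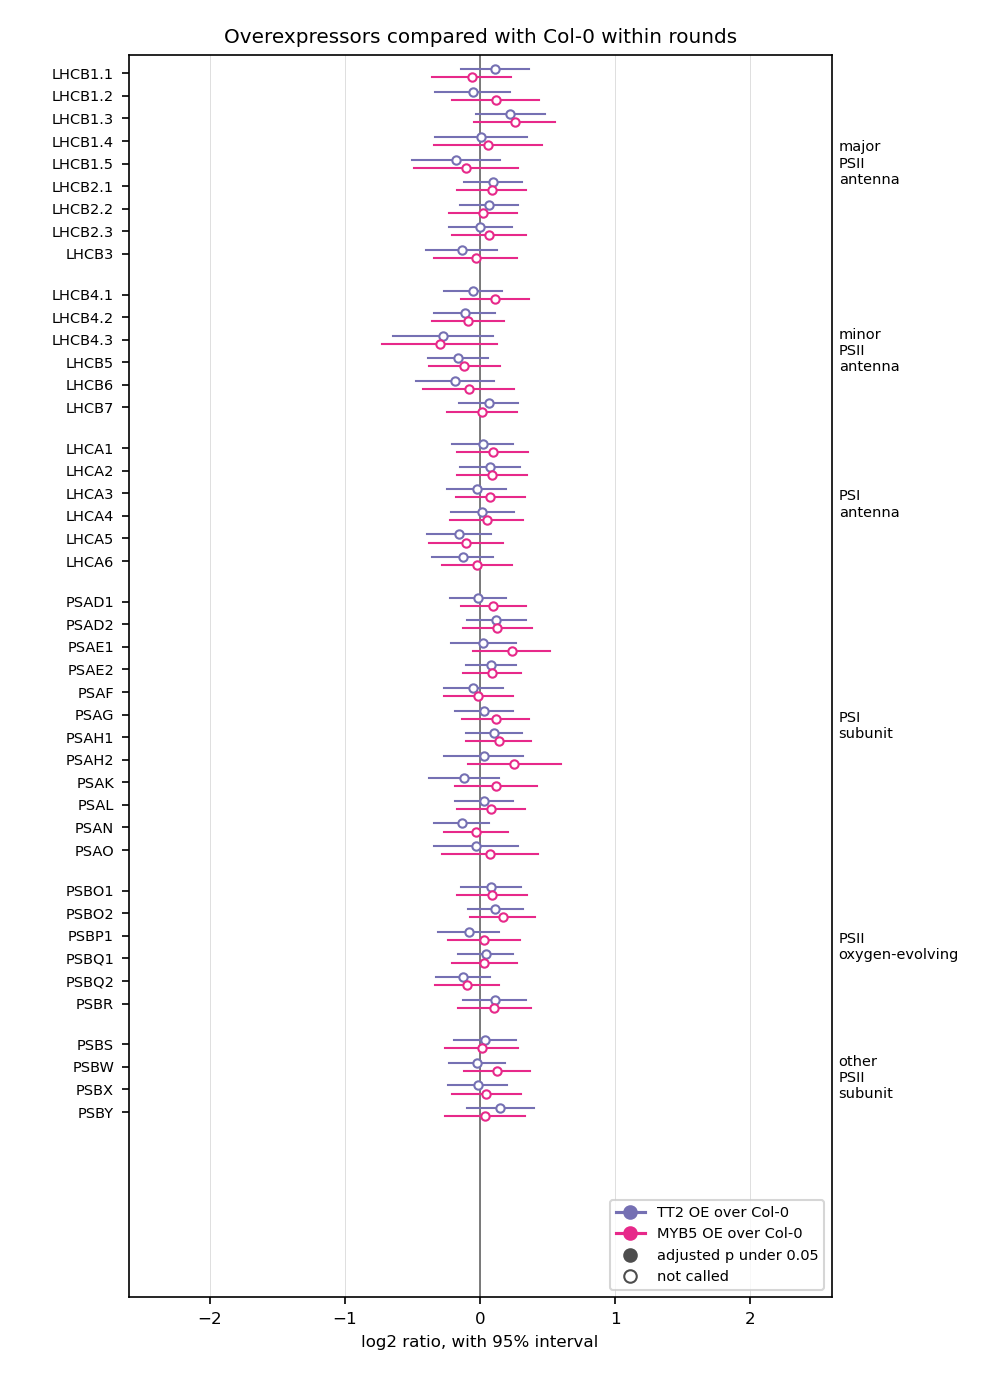
Log2 ratios of *TT2* OE (violet) and *MYB5* OE (pink) over Col-0 are plotted for each member with 95% intervals, on the same scale as the comparison of rounds. All points are open, as no member had an adjusted p under 0.05, and all intervals lie between −0.72 and 0.60.

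Pairs of libraries within a round gave no constant direction for *TT2* OE. In round 1, 32 of 43 members were lower in *TT2* OE than in Col-0, with a median log2 ratio of −0.12, and the sum of all members had a log2 ratio of −0.16. In rounds 2 and 3, 29 and 24 members were higher in *TT2* OE, with medians of 0.07 and 0.03 and log2 ratios of the sum of 0.13 and 0.08. In *MYB5* OE, 22 members were higher than in Col-0 in round 1 and 30 in round 2, with log2 ratios of the sum of 0.06 and 0.09. These pairs hold 1 library a side and allow no test.

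Other photosynthesis genes are given by lists. Over all genes tested, 26.7% rose and 27.6% fell in round 2, and 20.8% rose and 20% fell in round 3, both over round 1. The lists hold few genes each, and their counts were not tested against these shares. Of 10 genes of electron transport and the ATP synthase, 4 rose and 4 fell in round 2, and 2 rose and 5 fell in round 3, both over round 1. Of 10 carbon fixation genes, 7 rose and 1 fell in round 2, and 0 rose and 4 fell in round 3. The medians of this list were log2 0.41 and −0.20, beside −0.12 and −0.36 for the photosystem and antenna genes. Of 4 genes for import and insertion of antenna proteins, 1 rose and 2 fell in round 2, and 1 rose and 1 fell in round 3. Of the 3 genes for kinases and the phosphatase of antenna proteins, 1 rose and 1 fell in round 2, and 2 fell in round 3. Of 7 light-stress relatives of antenna proteins, 4 rose and 1 fell in round 2, and 1 rose and 3 fell in round 3. Of 8 regulators of photosynthesis genes, clock genes included, 6 rose and 1 fell in each comparison. Of 10 root markers, 3 rose and 1 fell in round 2, and 1 rose and 2 fell in round 3, and their part in the ratios of the members was not tested. Between genotypes, only the transgenes and the root suberin gene *CYP86A1* were called in these lists. *CYP86A1* was lower in *TT2* OE (log2 −1.06, adjusted p = 0.00430) and in *MYB5* OE (log2 −1.15, adjusted p = 0.0295). The 6 listed chloroplast-encoded photosystem genes were not analysed here.

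Of the 14 members that fell from round 1 to round 2, 4 had AAAAATCT in the 300 bases before the start (*LHCB1.4*, *LHCA4*, *PSAN* and *PSAO*), and of the 13 that rose, 0 had it. *LHCB1.1*, the other member with AAAAATCT, was not called in round 2 (log2 0.05). It was higher in round 3 over round 1 (log2 0.45), a call lost without O2 or U2. The I-box occurred in 1 of the 14 and 4 of the 13. Over all promoters, AAAAATCT occurred in 7.94% and the I-box in 14.7%. The G-box occurred in 3 of each and CCAAT in 9 of each, while the evening element and AACAATCT each occurred in 1 of the 14 and 0 of the 13. These are counts of letters in few promoters, given without a test. The split was made for round 2 alone and not over all genes called.

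The genes whose log2 CPM followed the summed level of the members most closely over the 8 libraries were AT5G09820 (Pearson r = 0.987), *CYP90D1* (r = 0.969), AT1G79870 (r = 0.964), AT3G45430 (r = 0.963), AT3G15550 (r = 0.962), *FLU* (r = 0.961), *APC4* (r = 0.959), AT3G49370 (r = 0.957), *BSL1* (r = 0.956) and AT1G15530 (r = 0.956). *FLU* is a brake on chlorophyll synthesis and *CYP90D1* an enzyme of brassinosteroid synthesis. These values describe 8 libraries that share rounds and were picked as the highest of all genes tested.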

How the data were processed

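The authors built directional libraries (NEBNext Ultra), sequenced them on an Illumina instrument, and mapped and counted reads with CLC Genomics Workbench 10. The genome was TAIR10 per the labels. The deposited counts are whole numbers of reads per gene, not normalized. Not used were 24 columns of normalized values and 4 columns of a library for which no sample is given. Total counts ran from 35496351 to 48428855 per library, and intervals on shares cover counting error only.

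Genes were filtered by filterByExpr with genotype as the group (20382 of 28496 kept), scaled by TMM (factors 0.932 to 1.06) and fitted on all 8 libraries with genotype and round as terms (3 residual degrees of freedom). The quasi-likelihood test of edgeR 4.0.16 was used (R 4.3.3). P-values were adjusted by Benjamini-Hochberg over all genes tested. An adjusted p under 0.05 was a call, with no minimum fold. Values are TMM-scaled CPM, and intervals are 95%. The SE of a log2 ratio was worked back from the ratio and the F statistic of its quasi-likelihood test. Its interval was built from that SE, so both are approximate. The test was also run on counts simulated from its own fit with planted changes, which does not measure how often it makes false calls. Alternatives were RLE factors, DESeq2 1.42.0, no filter, TMM without the members, *LHCB1.1* to *LHCB1.3* summed, single terms, rounds 1 and 2 alone and each library left out.

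Libraries with consecutive codes were taken as a round because earlier results had shown that they deviate together. The members, lists and rounds were chosen with earlier results of these data known. Per-library values are given, in each role, for the member of highest mean CPM and those with the highest and lowest ratio of round 2 to round 1, with copies as ratios and other genes as list counts. Sequences and coordinates come from RefSeq (TAIR10.1), where all 43 members matched, read with Python 3.11.15. Figures were drawn with matplotlib 3.10.9.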

Additional observations from a re-analysis of the deposited data

Results flagged for a closer look

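In single pairs of libraries within a round, *PSAO*, a small PSI subunit, was higher in *TT2* OE than in Col-0 in round 3 (log2 0.49) and lower in round 1 (log2 −0.37). *LHCB1.4*, an LHCII antenna gene, was higher in *MYB5* OE than in Col-0 in round 1 (log2 0.31) and lower in round 2 (log2 −0.29). Both drew attention because the direction turned between rounds with a size of at least 0.25 on the log2 scale each way. Each value compares 1 library with 1 library, and the difference between rounds was not tested.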

How the results depend on the processing

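No member's log2 ratio of a called comparison changed sign under any alternative run. With *LHCB1.1* to *LHCB1.3* summed, 1 member rose from round 2 to round 3 in place of 2, as *LHCB1.1* no longer counts by itself. Leaving out each library in turn gave 10 to 14 rises and 8 to 17 falls in round 2 over round 1, 3 to 5 rises and 12 to 22 falls in round 3 over round 1, and 0 to 2 rises and 12 to 22 falls in round 3 over round 2. In the genotype comparisons it gave 0 members in each direction. Each omission leaves fewer libraries and residual degrees of freedom, and the lone library of an arm is assumed to vary like the others. DESeq2 called 14 rises and 16 falls, 5 and 24, and 2 and 23 in these comparisons of rounds. It did not call the rise of *LHCB1.4* from round 2 to 3 (adjusted p = 0.333), of which the cause was not tested. In its place DESeq2 called a rise of *LHCB1.3* from round 2 to 3 (log2 0.33, adjusted p = 0.0118), which the main model did not call. DESeq2 alone of these 2 also called *LHCB3*, *LHCB4.1* and *PSBQ1* in round 2 over round 1, and *LHCA2* and *PSAD1* in round 3 over round 1. Without the replicate block, that is with genotype alone in the model, 0 members were called in each direction in the genotype comparisons. The main model had called 0 as well. Genotype alone leaves the differences between rounds in the residual spread, so that run could hardly call a member and does not show what the block does. Replicate numbers follow accession order and equal the round. There are 2 or 3 libraries a round, and the effect of their number was not set against that of depth.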
